A study of Mus musculus with 18 samples.

Results

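The 9 genes described here encode liver enzymes that make glucose and break down amino acids: Pcx, Pck1 and Fbp1 of gluconeogenesis, Tat, Hpd and Hgd of tyrosine breakdown, Tdo2 of tryptophan breakdown, Hal of histidine breakdown, and Sds, which acts on serine. They were taken by symbol as a named list, and all 9 were found among the 34937 genes counted and passed the filter on low counts. Poly-A RNA had been sequenced from 18 mouse livers, 1 library per mouse, in 6 groups of 3. Every mouse had received carbon tetrachloride, which is toxic to hepatocytes, as an intraperitoneal injection of 0.5 µL/g, and all ate regular chow. MycER joins MYC, a transcription factor, to the hormone-binding part of an estrogen receptor, and it was switched on by 1 mg of tamoxifen injected each day. Group 12 was taken 12 days after injury with MycER not activated, and group 12ON at 12 days with MycER activated. Groups 1OFF, 2OFF, 3OFF and 7OFF are labelled as 1, 2, 3 and 7 days after injury without activation. The labels do not say whether MycER had been active in the OFF mice at an earlier time, whether group 12 received tamoxifen, which promoter or cell type drives MycER, or the age, sex, feeding state or hour of sampling of the mice.

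Gluconeogenesis runs from pyruvate to glucose and keeps blood sugar up between meals. Pyruvate carboxylase (Pcx) makes oxaloacetate in mitochondria, the cytosolic phosphoenolpyruvate carboxykinase (Pck1) turns oxaloacetate into phosphoenolpyruvate, and fructose-1,6-bisphosphatase (Fbp1) acts near the end of the path. Amino acids feed it: tyrosine aminotransferase (Tat) starts tyrosine breakdown, which 4-hydroxyphenylpyruvate dioxygenase (Hpd) and homogentisate dioxygenase (Hgd) continue, tryptophan dioxygenase (Tdo2) opens the kynurenine path, histidine ammonia-lyase (Hal) opens histidine breakdown, and serine dehydratase (Sds) gives pyruvate. Glucagon, acting through cyclic AMP, and glucocorticoids are known to raise transcription of Pck1, Tat and Sds.

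Promoter windows of 250 bases before the annotated start (RefSeq, GRCm38.p6) were available for 8 of the 9 genes, and Sds had no entry. Motifs were searched on both strands, and they were chosen after the windows had been read. The windows of Pck1, Hal and Pcx are shown. Pck1 and Hal were among the genes that fell furthest when MycER was on, while Pcx did not fall. Fbp1 fell slightly more than Hal, but its window held none of the motifs and is not shown. The 3 windows shown are on the forward strand and run 5′ to 3′, with the motif letters in capitals. The Pck1 window is chr2:173152823-173153072, the Hal window is chr10:93488518-93488767 and the Pcx window, at the first of its 2 annotated starts, is chr19:4510222-4510471. In the annotation used for counting (Ensembl, GRCm38), Pck1 spans chr2:173153048-173159273, so its window reaches just past that start, Hal spans chr10:93488768-93519304 and Pcx chr19:4510472-4621752.
Pck1: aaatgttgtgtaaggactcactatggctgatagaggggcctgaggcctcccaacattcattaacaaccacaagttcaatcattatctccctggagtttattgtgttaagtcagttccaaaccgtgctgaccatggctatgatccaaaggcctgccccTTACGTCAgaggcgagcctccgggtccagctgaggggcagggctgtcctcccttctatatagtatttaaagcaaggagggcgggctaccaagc
Hal: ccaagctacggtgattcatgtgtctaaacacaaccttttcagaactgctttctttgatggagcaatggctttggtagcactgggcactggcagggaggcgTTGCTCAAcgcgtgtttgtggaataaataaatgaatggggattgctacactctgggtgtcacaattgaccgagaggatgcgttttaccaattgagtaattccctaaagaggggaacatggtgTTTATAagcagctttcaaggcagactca
Pcx: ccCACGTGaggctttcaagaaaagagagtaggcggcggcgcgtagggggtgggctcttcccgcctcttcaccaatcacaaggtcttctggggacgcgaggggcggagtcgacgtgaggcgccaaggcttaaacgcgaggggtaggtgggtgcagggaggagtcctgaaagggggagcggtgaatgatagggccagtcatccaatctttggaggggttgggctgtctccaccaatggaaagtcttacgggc
The capitals in the Pck1 window mark TTACGTCA, the cyclic AMP response element described for this gene, 93 to 86 bases before the start. It occurred in 0.447% of the 32851 promoter windows of the same length. The capitals in the Hal window mark TTGCNNAA, a C/EBP-type motif found in 9.56% of all windows, and the reverse complement of TATAAA, found in 12.4%. Those in the Pcx window mark CACGTG, the E-box bound by MYC with MAX, 248 to 243 bases before the start, a motif held by 6.02% of all windows. CACGTG was in the window of 1 of the 8 genes, Pcx, and there at the first start alone. Counts per gene do not show which of the 2 Pcx starts these livers used. A letter match is a description of these windows and not a binding site. TTGCNNAA and TATAAA were also in the window of Hgd, and TATAAA in that of Tdo2. The full palindromic glucocorticoid response element and the consensus element TGACGTCA were in none of the 9 windows, against 0.00913% and 1.55% of all windows. The windows of Fbp1, Hpd and Tat and the second Pcx window held none of the 6 motifs.

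Depth ranged from 23.06 to 75.28 M counts per library, in which 19763 to 22315 genes were detected. The lowest count of any of the 9 genes in any library was 2554, so counting error is small beside the spread between mice. Levels are given as TMM-scaled CPM, the counts of a gene relative to the scaled total of its library, or, to compare genes with each other, as CPM per kilobase of exon (RPKM). The 10 hepatocyte markers were all detected in every group. Mice within groups were not uniform. The second 2OFF library lay closer to the 12ON mean (root mean square log2 distance 0.41 over all tested genes) than to the mean of the other 2OFF libraries (0.55), so results for 2OFF are given with and without it. Other libraries also lay nearer another group than their own. Replicates 1 and 3 of 2OFF were at 0.42 and 0.4 from 1OFF, and at 0.47 and 0.49 from their own group. Replicate 2 of 1OFF was at 0.4 from 12ON, 0.38 from 2OFF and 0.41 from its own group. Replicate 3 of 1OFF was at 0.39 from 2OFF and 0.45 from its own group. Replicate 1 of 3OFF was at 0.48 from 2OFF and 0.49 from its own group. Replicate 3 of 7OFF was at 0.55 from 3OFF and 0.59 from its own group. The own-group mean held fewer libraries, since the library itself was left out. In 5 libraries Xist was high, 1 in each group but 1OFF. Myc, whose counts cannot show whether the fusion protein is active, lay between 3.77 and 10.9 CPM in all libraries.

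In the livers of group 12, Fbp1 and Pck1 stood highest per kilobase, at 603.1 ± 85.5 and 587.6 ± 58.8 RPKM (SD, n = 3). Tat followed at 436.5 ± 102.0 and Hpd at 422.1 ± 99.4 RPKM. The other 5 genes lay lower, from Sds at 165.6 ± 29.6 through Hgd, Pcx and Hal down to Tdo2 at 89.2 ± 6.5 RPKM. In 12ON the order was compressed at the top. Fbp1, Hpd, Pcx, Tat and Pck1 had mean levels of 152.7, 151.3, 143.1, 138.4 and 138.1 RPKM, and any pair of these differed by less than the larger of its SDs. Pcx was at rank 7 per kilobase in group 12 and at rank 3 in 12ON without a called change of its own, and Hal was lowest at 23.5 ± 5.07 RPKM.

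**Figure D1:**
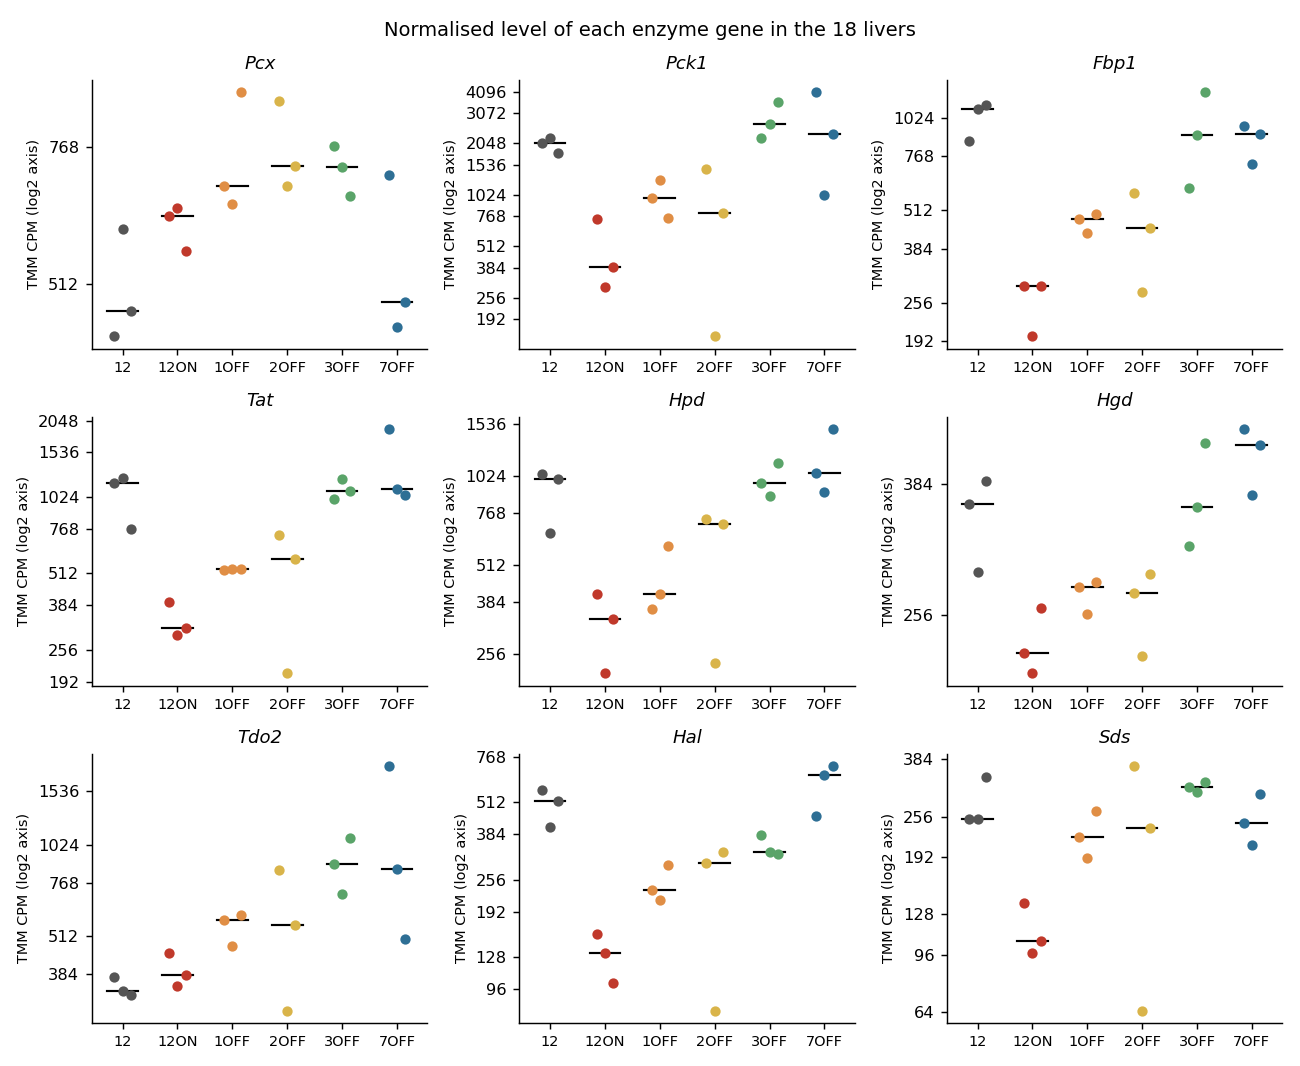
Each panel shows 1 gene, with each point 1 mouse, the bar the median of 3 mice, the groups along the x axis and TMM-scaled CPM on a log2 y axis. For Pck1, Fbp1, Tat, Hpd, Hgd, Hal and Sds every 12ON point lies below every group 12 point, while for Pcx and Tdo2 the groups overlap.

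With MycER active at 12 days, 7 of the 9 genes were lower than in group 12 and none was higher. Of all 17789 genes tested, 46.6% were called in this comparison, 22.6% lower and 24% higher. The median log2 fold change was -1.48 over the 9 genes and -0.005 over all tested genes. Fold changes, standard errors (SE) and adjusted p-values come from edgeR's quasi-likelihood test over all 18 libraries with Benjamini-Hochberg adjustment over all genes, and a gene was called at an adjusted p under 0.05. The 2 genes that were not called were Pcx and Tdo2. In bulk tissue, fewer hepatocytes and less RNA per hepatocyte cannot be told apart.

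Pck1, whose enzyme commits oxaloacetate to glucose, was at 2062.5, 2188.2 and 1793.5 CPM in the 3 mice of group 12 and at 735.2, 296.2 and 388.9 CPM in 12ON. The highest 12ON mouse was far below the lowest mouse of group 12. The mean was 4.26-fold lower (log2 fold change -2.09 ± 0.61 SE, adjusted p = 0.0107). Without the second 12ON library the change was -1.84 and just missed the threshold (adjusted p = 0.0503).

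Fbp1, which removes a phosphate late in the path, was at 859.0, 1097.3 and 1123.0 CPM in group 12 against 289.8, 199.1 and 290.6 CPM in 12ON. The groups did not overlap, and the 12ON mice sat close together. Fbp1 was 3.95-fold lower (log2 fold change -1.98 ± 0.28 SE, adjusted p = 4.03e-05).

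Pcx, which opens the path, behaved otherwise. Its levels were 438.5, 603.6 and 472.8 CPM in group 12 and 625.7, 642.3 and 565.4 CPM in 12ON. The groups overlapped through the second mouse of group 12. The log2 fold change was 0.28 ± 0.18 SE, with a 95% interval from -0.11 to 0.66 and an adjusted p of 0.23. When libraries were scaled by their totals alone, which moved the median of all genes to 0.49, Pcx was called higher at 0.78 (adjusted p = 0.000479). A ratio within each library needs no scaling: Pcx had 0.213, 0.276 and 0.264 counts per Pck1 count in group 12 and 0.851, 2.17 and 1.45 in 12ON. Pcx thus went from a minority of the Pck1 count to near or above it.

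The 3 tyrosine genes all fell, the first by most and the last by least. Tat, the first and rate-limiting step, was at 1168.0, 1213.6 and 767.9 CPM in group 12 and 395.0, 292.4 and 311.5 CPM in 12ON. No 12ON mouse reached the lowest mouse of group 12, and the fall was 3.15-fold (log2 fold change -1.66 ± 0.35 SE, adjusted p = 0.0011). Hpd, which makes homogentisate, was at 1039.6, 654.9 and 999.8 CPM in group 12 and at 409.5, 219.7 and 336.9 CPM in 12ON. Its groups did not overlap either, and it fell 2.79-fold (log2 fold change -1.48 ± 0.36 SE, adjusted p = 0.00329). Hgd, which opens the homogentisate ring, was at 360.6, 292.2 and 388.1 CPM against 227.9, 213.7 and 261.7 CPM. The gap between groups was narrow but complete, and the fall was 1.48-fold (log2 fold change -0.57 ± 0.15 SE, adjusted p = 0.00489). Hgd varied least of the 9 genes between mice of a group (pooled log2 SD 0.18, against 0.87 for Pck1). With scaling by totals alone Hgd was not called (-0.08, adjusted p = 0.652).

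Tdo2, which opens the main route of tryptophan breakdown, did not follow Tat. It was at 374.7, 337.1 and 326.8 CPM in group 12 and 451.7, 351.4 and 382.0 CPM in 12ON, and the groups overlapped. Its log2 fold change was 0.19 ± 0.38 SE (adjusted p = 0.713) with a 95% interval from -0.63 to 1.01. Within libraries Tdo2 had 0.321, 0.278 and 0.426 counts per Tat count in group 12 and 1.14, 1.2 and 1.23 in 12ON.

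Hal, which removes ammonia from histidine, fell 3.84-fold. It was at 573.9, 411.8 and 516.9 CPM in group 12 and at 157.4, 132.6 and 101.3 CPM in 12ON, with a wide gap between the groups (log2 fold change -1.94 ± 0.37 SE, adjusted p = 0.000537). Sds, which converts serine to pyruvate, was at 251.6, 251.6 and 338.4 CPM against 138.8, 96.9 and 105.8 CPM. It fell 2.46-fold with no overlap (log2 fold change -1.3 ± 0.39 SE, adjusted p = 0.0128), and missed the threshold without the second 12ON library (-1.2, adjusted p = 0.0521) and with scaling by totals alone (-0.83, adjusted p = 0.0705).

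Sds shares 360 exon bases, 21.25% of its exon length, with Plbd2 on the opposite strand, and 141 bases with Gm15690. Counting ignored strand and gave a shared read to both genes, so reads of these genes cannot be told apart there. Gm15690 had a log2 fold change of -1.28 ± 0.39 SE (adjusted p = 0.0138) and followed Sds over the 18 libraries with a Pearson r of 0.998. Plbd2 was not called (-0.39 ± 0.18 SE, adjusted p = 0.0964). The other 8 genes shared no exon bases with another gene.

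Other features of the libraries moved with this comparison. Of 10 hepatocyte markers 9 were called lower in 12ON and 1 higher (median log2 fold change -0.9), and their summed level was 48886.2 to 59635.4 CPM in 12ON against 146864.8 to 160034.3 CPM in group 12. The 8 cholangiocyte markers summed to 204.4 to 215.1 CPM against 46.1 to 110.7 CPM, with 6 higher, and the 8 stellate cell and myofibroblast markers to 761.4 to 809.0 CPM against 401.3 to 509.4 CPM, with 4 higher, or 2 without replicate 2 of group 12 or replicate 3 of 12ON. All 8 sinusoidal endothelial markers were lower (224.8 to 233.7 against 415.6 to 474.6 CPM), as were 5 of 7 Kupffer cell markers (589.9 to 1000.8 against 1211.6 to 1619.9 CPM), or 3 without replicate 2 or 3 of 12ON. Lymphocyte markers summed to 4.05 to 4.91 against 8.76 to 10.6 CPM, and neutrophil and monocyte markers to 455.6 to 503.4 against 513.4 to 742.0 CPM. Adipocyte markers reached at most 6.07 CPM in 12ON and 1.8 CPM in group 12. Pancreatic acinar markers lay between 0.616 and 114.8 CPM in 12ON and under 0.9 CPM in group 12. The part of any of these in the enzyme genes' fall was not tested.

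The mitochondrial share of the counts also did not overlap, at 4.8% to 5.246% in group 12 and 6.418% to 7.112% in 12ON. With a term for it in the fit, Fbp1, Hpd, Hgd and Hal were still called lower. Pck1 (-2.12, adjusted p = 0.108), Tat (-1.35, adjusted p = 0.0757) and Sds (-1.26, adjusted p = 0.147) were not. Without the term their log2 fold changes were -2.09, -1.66 and -1.3. Because the share separated group 12 from 12ON, the fit can hardly tell it from the group difference. Lost calls therefore do not show what part the share had.

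**Figure D2:**
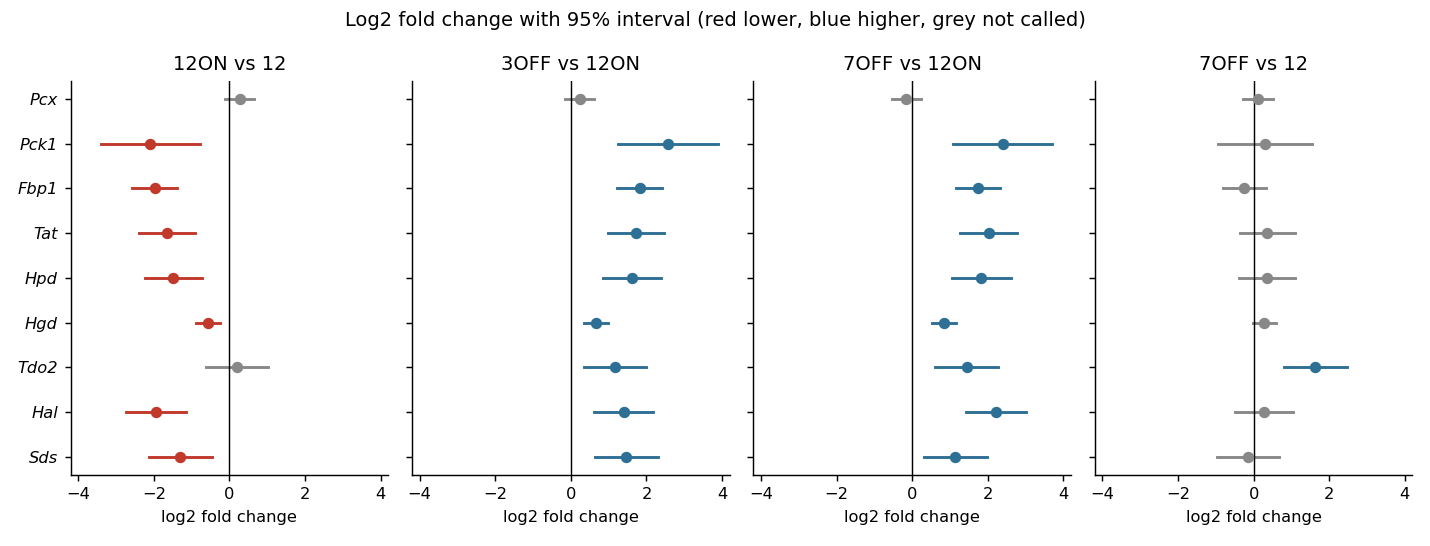
The x axis is the log2 fold change of the first group over the second and each row is 1 gene, with the point the estimate and the bar its 95% interval, red for lower, blue for higher and grey for not called. In 12ON vs 12, 7 genes are red; in 3OFF vs 12ON and in 7OFF vs 12ON, 8 are blue; in 7OFF vs 12 Tdo2 alone is blue.

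The steps next to the 9 genes were followed as well. Of 15 such genes, 9 were lower and 3 higher in 12ON than in group 12, against 22.6% and 24% of all tested genes. Their median log2 fold change was -0.81. The last steps of glucose release, G6pc and Slc37a4, were not called. G6pc, the catalytic subunit of glucose-6-phosphatase, was at 263.6, 114.0 and 186.8 CPM in group 12 and 104.7, 73.4 and 103.0 CPM in 12ON. All 3 of its 12ON values lay below group 12, with a log2 fold change of -1.0 ± 0.45 SE (adjusted p = 0.0775), and it was called without the second library of group 12 (-1.26, adjusted p = 0.0441). Slc37a4, the glucose-6-phosphate transporter, had a log2 fold change of 0.57 ± 0.28 SE (adjusted p = 0.102). It was the gene most like Pcx over the 18 libraries, with a Pearson r of 0.866.

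Downstream of the 9 genes, most amino acid steps were lower too. After Hgd, Gstz1 (maleylacetoacetate isomerase) fell by 1.13 and Fah (fumarylacetoacetate hydrolase) by 1.08 on the log2 scale, with adjusted p-values of 2.32e-05 and 0.000371. After Tdo2, whose own call was absent, the kynurenine enzymes Afmid, Kmo, Kynu and Haao all fell, with log2 fold changes of -1.78 ± 0.4, -0.81 ± 0.15, -1.07 ± 0.14 and -1.19 ± 0.17 (SE). After Hal, Uroc1 (urocanase) fell by 1.2 and Amdhd1 (imidazolonepropionase) by 0.54 on the log2 scale. Of the 5 histidine genes followed, 3 were lower and none higher, and Ftcd, the last step, was not called (-0.41 ± 0.17 SE, adjusted p = 0.0567).

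**Figure D3:**
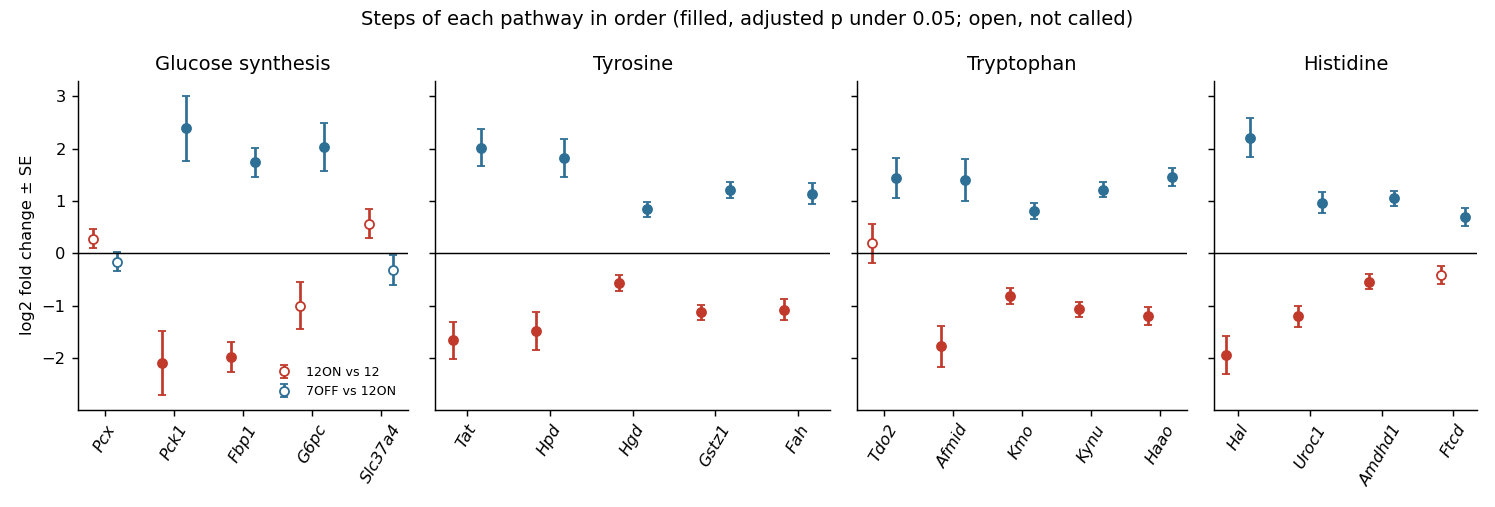
Steps of 4 paths are placed in order along the x axis, with the log2 fold change and its SE on the y axis for 12ON vs 12 (red) and 7OFF vs 12ON (blue), filled where the adjusted p is under 0.05 and open otherwise. In 12ON vs 12 the open red points are Pcx, G6pc, Slc37a4, Tdo2 and Ftcd, and the other red points lie below 0.

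For Pck1 and for Sds, a second gene of the same activity was called in the opposite direction. Pck2, the mitochondrial phosphoenolpyruvate carboxykinase, was at 7.52, 8.76 and 8.49 CPM in group 12 and 20.8, 18.5 and 10.2 CPM in 12ON. Every 12ON mouse lay above group 12, replicate 3 by a small margin (log2 fold change 0.99 ± 0.27 SE, adjusted p = 0.00727). Sdsl, a serine dehydratase-like gene, was at 10.9, 15.5 and 14.3 CPM in group 12 and 25.5, 26.6 and 20.7 CPM in 12ON, with no overlap (0.83 ± 0.17 SE, adjusted p = 0.00113). Per kilobase both stayed below their partners in 12ON, with Pck2 at 4.85 ± 1.64 and Sdsl at 16.2 ± 2.12 RPKM against 138.1 for Pck1 and 67.2 for Sds. In 7OFF Pck2 was at 5.52, 6.85 and 6.29 CPM and Sdsl at 14.7, 18 and 15.5 CPM, below all of 12ON (-1.4 ± 0.27 and -0.59 ± 0.17 SE, adjusted p-values of 0.000768 and 0.0115). The call of Pck2 in 12ON vs 12 ended with the mitochondrial term (0.91, adjusted p = 0.133). Fbp2, the muscle-type fructose-1,6-bisphosphatase, was also called higher in 12ON, but from 1 to 2 counts per library in group 12 to 25 to 68 counts in 12ON, too few for a level.

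**Figure D4:**
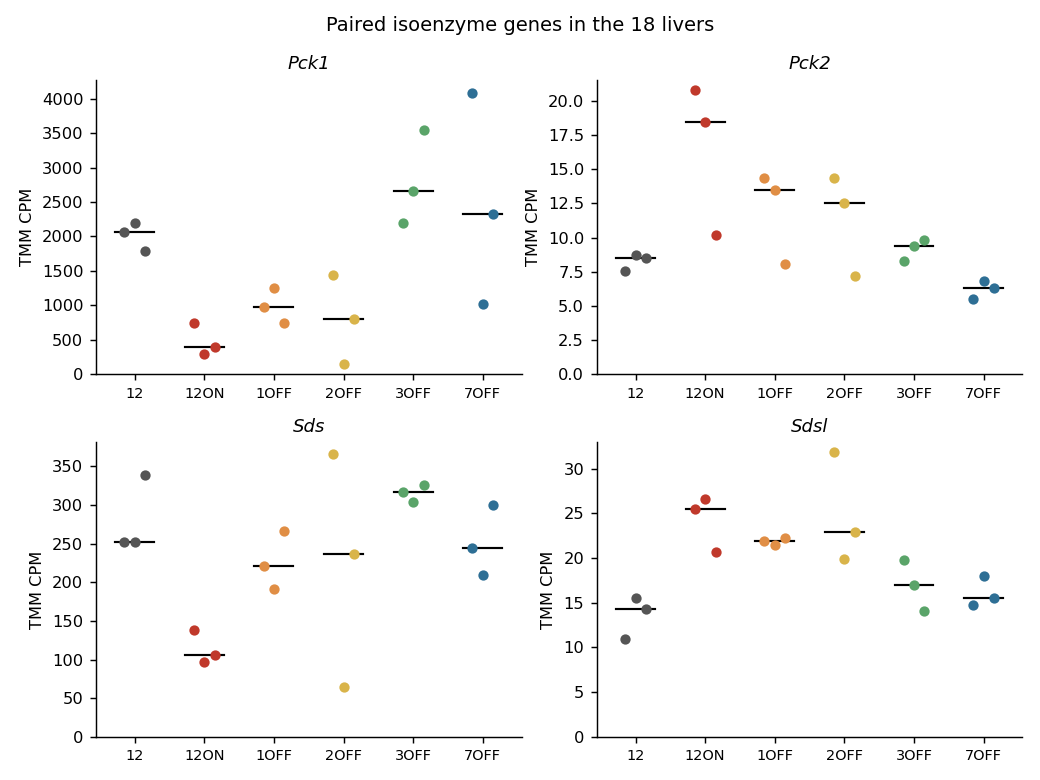
Levels of 2 pairs of isoenzyme genes in the 18 livers are plotted by group, with each point 1 mouse, the bar the median and TMM-scaled CPM on a y axis from 0. In 12ON the points of Pck1 and Sds are low while those of Pck2 and Sdsl are high, on axes that differ widely between the panels of a pair.

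In the wider amino acid lists, taken from outside the 9 genes, more genes were lower than higher in 12ON. Of 23 tested genes of serine, glycine, threonine and methionine breakdown, 11 were lower and 4 higher, the latter becoming 2 without replicate 1 or 2 of group 12 or replicate 1 or 3 of 12ON. Gldc, the glycine decarboxylase (0.67 ± 0.25 SE, adjusted p = 0.0356), lost its call without any 1 of the 6 libraries (adjusted p-values from 0.0546 to 0.0966). Cbs, which makes cystathionine from homocysteine, fell most clearly, from 1010.5 to 176.0 CPM on average (log2 fold change -2.52 ± 0.21 SE, adjusted p = 7.47e-07). Ahcy, which makes homocysteine, fell by 1.45 on the log2 scale. Of 12 tested tryptophan genes 9 were lower and 2 higher, the latter being Qprt (0.6) and Acmsd (0.87), both of which act late in the kynurenine path. The Acmsd call ended without replicate 1 or 3 of group 12 or replicate 2 of 12ON (adjusted p-values of 0.0902, 0.0671 and 0.148). Of 9 phenylalanine and tyrosine genes 7 were lower and 1 higher. Of 24 genes of branched chain, lysine, proline and glutamate breakdown 10 were lower and 1 higher. Among the lower was Oat, ornithine aminotransferase (log2 fold change -2.19 ± 0.42 SE, adjusted p = 0.000562). Of 22 other genes of gluconeogenesis and its carriers, 5 were lower and 6 higher, near the 22.6% and 24% of all tested genes. Among the lower were Aqp9 (-1.44), a glycerol channel, Got1 (-1.31), a cytosolic aspartate aminotransferase, and the pyruvate carrier subunits Mpc1 (-0.52) and Mpc2 (-0.77). Among the higher were G6pc3 (1.11), a widely expressed glucose-6-phosphatase, and Mdh2 (0.68), the mitochondrial malate dehydrogenase.

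These splits depended on scaling. With scaling by totals alone, which gave 9130 genes higher and 1403 lower over all tested genes, the serine, glycine, threonine and methionine list had 4 lower and 7 higher. The branched chain, lysine, proline and glutamate list had 1 lower and 7 higher, and the list of gluconeogenesis and its carriers 2 lower and 12 higher. The phenylalanine and tyrosine list had 3 lower and 2 higher, the tryptophan list 8 and 2, the histidine list 1 and 0, and the neighbouring steps 7 and 4. Cbs, Ahcy, Oat, Aqp9 and Got1 were called lower under that scaling too, and Mpc1 (-0.03) and Mpc2 (-0.29) were not called.

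Regulators of these genes were also listed, and 10 of 20 were lower and 2 higher in 12ON, against 22.6% and 24% of all tested genes. Gcgr, the glucagon receptor, fell by 0.58, Hnf4a, a hepatocyte transcription factor, by 0.78, Crtc2, a coactivator in cyclic AMP signalling, by 0.66, and Ppara, a fatty acid sensor, by 1.24 on the log2 scale. The 2 that were higher were Ppargc1a (PGC-1α, a coactivator of gluconeogenic genes; 6.78 to 16.9 CPM, log2 fold change 1.3 ± 0.24 SE, adjusted p = 0.000406) and Sik1, a kinase induced by cyclic AMP (1.08 ± 0.27 SE, adjusted p = 0.00432). With the mitochondrial term 6 of the 20 were called. With scaling by totals alone 3 were lower and 7 higher, and Gcgr (-0.09) and Crtc2 (-0.17) were not called.

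The second question of the design sets each OFF group against 12ON. By the labels, each OFF group differs from 12ON both in day after injury and in activation, so these cannot be told apart. These comparisons share the 12ON libraries with each other and with 12ON vs 12, so low values in those 3 mice enter all of them. At 1 day, none of the 9 genes was called by edgeR, and 0.00562% of all genes (1 gene) were. At an unadjusted p under 0.05 there were 3 of the 9 (Fbp1, Hal and Sds) and 14.4% of all genes. DESeq2 called 1 of the 9, Fbp1 (0.85, adjusted p = 0.0442), and 514 genes in all. The mice of the 2 groups did not overlap for 7 of the 9, all but Hpd and Hgd, nor for 27.3% of all genes tested. Pck1 was at 972.8, 1256.0 and 745.3 CPM in 1OFF, all above the highest 12ON mouse by a small margin in replicate 3. Its difference from 12ON, 1.07 ± 0.59 SE on the log2 scale, had a 95% interval from -0.19 to 2.33. Fbp1 was at 478.9, 431.4 and 497.5 CPM, also above all of 12ON (log2 fold change 0.85 ± 0.27 SE, adjusted p = 0.162). Tat was at 529.6, 532.6 and 534.9 CPM, the tightest triplet of any gene and group, between 12ON and group 12.

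At 2 days, edgeR called none of the 9 genes (0% of all genes). At an unadjusted p under 0.05 there were 4 of the 9 and 17.1% of all genes, and DESeq2 called 0 of the 9 and 919 genes in all. The second 2OFF mouse stood apart. Pck1 was at 1438.6, 152.3 and 803.4 CPM, a 9.45-fold range, with the second mouse below every 12ON mouse. Sds was at 365.9, 64.5 and 236.4 CPM, Hal at 297.4, 79.1 and 327.4 CPM, and Tat at 725.3, 206.7 and 585.2 CPM, each with the second mouse under all of 12ON. Fbp1 was at 583.7, 276.5 and 447.2 CPM, Hpd at 733.5, 238.7 and 704.1 CPM and Tdo2 at 847.3, 291.4 and 556.2 CPM, again with that mouse lowest. Pcx was at 882.7, 684.2 and 726.5 CPM and Hgd at 274.2, 225.8 and 291.0 CPM, where the second mouse stood much nearer the others. This library was singled out for lying near 12ON, so leaving it out favours calls against 12ON and is no independent check. Without it 1505 genes were called, 520 higher and 985 lower, and 5 of the 9 were higher than in 12ON. They were Fbp1 by 0.98, Tat by 0.96, Hpd by 1.15, Hal by 1.25 and Sds by 1.39 on the log2 scale. Their adjusted p-values were 0.0284, 0.0249, 0.023, 0.00423 and 0.00226.

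At 3 days, 8 of the 9 genes were higher than in 12ON, all but Pcx, where 32.3% of all tested genes were called, 15.3% higher and 17% lower. The median log2 fold change of the 9 was 1.47, against 0.013 for all genes. Scaling by totals alone moved the median of all genes to -0.31 and left 6 of the 9 called. Hgd (0.33, adjusted p = 0.083) and Tdo2 (0.85, adjusted p = 0.058) lost their calls under it. Pck1 was at 2191.7, 2656.2 and 3549.8 CPM, above every mouse of 12ON and of group 12 (log2 fold change over 12ON 2.56 ± 0.62 SE, adjusted p = 0.00568). Fbp1 was at 603.6, 899.4 and 1242.6 CPM and Tat at 1002.5, 1208.3 and 1078.3 CPM, both clear of 12ON (1.82 ± 0.27 and 1.72 ± 0.35 SE, adjusted p-values of 0.000286 and 0.0018). Hpd stood at 967.6, 877.5 and 1133.4 CPM (1.62 ± 0.36 SE) and Hgd at 316.9, 357.5 and 435.6 CPM (0.66 ± 0.15 SE), with adjusted p-values of 0.00332 and 0.00327. Hal was at 380.4, 329.2 and 320.6 CPM, above 12ON but below all of group 12 (log2 fold change over 12ON 1.4 ± 0.36 SE, adjusted p = 0.00884). Sds was at 316.7, 303.7 and 326.0 CPM (1.47 ± 0.39 SE, adjusted p = 0.0102), a call that ended without the second 12ON library (1.35, adjusted p = 0.0514). Tdo2 was at 884.9, 707.7 and 1075.9 CPM, above all of 12ON and of group 12 (1.17 ± 0.39 SE over 12ON, adjusted p = 0.0311). Its call over 12ON ended without any 1 of the 12ON libraries, or without replicate 1 or 3 of 3OFF, with adjusted p-values from 0.0532 to 0.107. Alongside, 8 of 10 hepatocyte markers were higher than in 12ON, with a summed level of 89328.6 to 114753.3 CPM. All 8 sinusoidal endothelial markers were higher (328.8 to 393.1 CPM) and 6 of 8 cholangiocyte markers lower (84.3 to 104.1 CPM), while the mitochondrial share, 5.363% to 7.176%, overlapped 12ON. The part of these in the differences at 3 days was not tested.

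At 7 days the same number, 8 of 9, were higher than in 12ON, again all but Pcx, where 44% of all tested genes were called, 21.4% higher and 22.7% lower. The median of the 9 was 1.74 on the log2 scale, against 0.006 for all genes. Hal was at 451.3, 654.3 and 707.2 CPM, 4.63-fold above 12ON and the largest difference after Pck1 among the 9 (2.21 ± 0.37 SE, adjusted p = 0.000232). Pck1 was at 4078.9, 1024.7 and 2323.9 CPM, all above 12ON but spread 3.98-fold (2.39 ± 0.62 SE, adjusted p = 0.00547). Tat was at 1897.4, 1100.8 and 1044.1 CPM, with the first mouse well above the others (2.02 ± 0.35 SE, adjusted p = 0.000292). Fbp1 at 961.3, 723.8 and 909.9 CPM, Hpd at 1049.8, 903.4 and 1473.8 CPM and Hgd at 455.0, 370.9 and 432.8 CPM were all above 12ON. Their log2 fold changes were 1.74 ± 0.27, 1.83 ± 0.36 and 0.84 ± 0.15 SE. Sds was at 244.4, 209.8 and 300.1 CPM (1.14 ± 0.39 SE, adjusted p = 0.0267), and its call ended without replicate 2 or 3 of 12ON or replicate 1 or 3 of 7OFF (adjusted p-values of 0.0959, 0.0783, 0.0503 and 0.0775). With scaling by totals alone Sds was not called (0.73, adjusted p = 0.111). Pcx was at 707.3, 451.3 and 486.2 CPM and overlapped 12ON (-0.16 ± 0.18 SE, adjusted p = 0.513), but was called lower, at -0.6 with adjusted p = 0.00427, when libraries were scaled by totals alone, which moved the median of all genes to -0.41.

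Tdo2 at 7 days rested on 1 mouse. It was at 1859.6, 852.8 and 502.1 CPM, all above 12ON, with the first mouse far above the next and a 3.7-fold range. The log2 fold change over 12ON was 1.44 ± 0.39 SE (adjusted p = 0.00763) and fell to 0.78 without that mouse (adjusted p = 0.0741). The same mouse also had the highest Pcx, Pck1, Fbp1, Tat and Hgd of its group.

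The neighbouring steps were mostly higher at 7 days than in 12ON: 11 of 15 were higher and 3 lower, with 7 of 9 phenylalanine and tyrosine genes, 9 of 12 tryptophan genes, 4 of 5 histidine genes and 15 of 24 branched chain, lysine, proline and glutamate genes higher and none lower in these 4 lists. With scaling by totals alone they were 4, 9, 2 and 7 higher, with 1, 1, 0 and 1 lower, and the neighbouring steps 10 higher and 4 lower. By totals alone 3 of the 22 other genes of gluconeogenesis and its carriers were higher and 10 lower. In the main fit 5 were higher and 5 lower, near the 21.4% and 22.7% of all tested genes. Among the higher were Mpc2 (0.86) and Aqp9 (1.3), and among the lower G6pc3 (-1.23) and Mdh2 (-0.6). G6pc was at 622.0, 224.4 and 304.4 CPM in 7OFF and was called higher (2.03 ± 0.46 SE, adjusted p = 0.00222). Ftcd, not called in 12ON vs 12, was higher by 0.69 ± 0.17 SE on the log2 scale (adjusted p = 0.00393). Of the serine, glycine, threonine and methionine list 12 of 23 were higher and 2 lower, 8 and 1 without the second 12ON library, and 6 and 5 by totals alone. Cbs was at 682.4 CPM on average, 1.95 ± 0.21 SE above 12ON. Among the regulators 9 of 20 were higher and 1 lower, or 6 and 4 by totals alone: Gcgr was higher by 0.96, Crtc2 by 0.97, Hnf4a by 0.81 and Ppara by 1.42 on the log2 scale, and Ppargc1a fell by 1.06. Hepatocyte markers moved alongside, with 9 of 10 higher and a summed level of 99130.2 to 120972.8 CPM. Cholangiocyte markers were at 65.7 to 96.0 CPM, with 6 of 8 lower than in 12ON, and sinusoidal endothelial markers at 324.0 to 395.6 CPM, with 7 of 8 higher. Stellate cell and myofibroblast markers were at 395.4 to 690.9 CPM, with 3 of 8 lower, and the mitochondrial share, 5.537% to 6.188%, lay below all of 12ON. With the mitochondrial term Tdo2 (1.35, adjusted p = 0.0523) and Sds (1.12, adjusted p = 0.0791) lost their calls at 7 days. The part of any of these in the differences was not tested.

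The OFF groups were also set against group 12, from which they differ by the labels in day after injury. At 1 day 5 of the 9 were called (of all genes 33.4% were called, 17.1% higher and 16.3% lower): Fbp1, Tat, Hpd and Hal were lower, by 1.13, 0.98, 0.98 and 1.02 on the log2 scale, and Pcx was higher by 0.56. At 2 days 5 were called (of all genes 35.1% were called, 18.1% higher and 17% lower): Fbp1, Tat, Hal and Hgd were lower, by 1.24, 1.05, 1.09 and 0.4, and Pcx was higher by 0.6. Fbp1 was called at both days whichever library was left out, but not with the mitochondrial term (-1.07 and -1.17, adjusted p-values of 0.124 and 0.0976), under which Pcx alone of the 9 was called at each day. The mitochondrial share of group 12 lay below all of 1OFF and 2OFF, so this term too can hardly be told from the group difference. Of the other calls at 1 day, each of the 6 libraries ended at least 1 when left out, and without the first library of group 12 Fbp1 alone was called. At 2 days leaving out replicate 1, 2 or 3 of group 12, or replicate 1 or 2 of 2OFF, left 1, 4, 2, 4 and 3 calls. Pcx, the 1 of the 9 called higher than group 12 at these days, lost its call without replicate 1 or 3 of group 12, replicate 3 of 1OFF or replicate 1 of 2OFF (adjusted p-values from 0.0615 to 0.131). Tdo2, at 580.9, 473.9 and 602.5 CPM in 1OFF, lay above all of group 12 at 1 day without a call (log2 fold change 0.67 ± 0.39 SE, adjusted p = 0.195), and had 0.71 ± 0.39 SE at 2 days (adjusted p = 0.17).

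Against group 12, 17.4% of all genes were called at 3 days (9.47% higher, 7.95% lower) and 5.77% at 7 days (2.47% higher, 3.31% lower). Of the 9 genes, Tdo2 alone was called at each of these days. It was higher by 1.36 ± 0.39 SE at 3 days (adjusted p = 0.0259) and by 1.63 ± 0.39 SE at 7 days (adjusted p = 0.0264), 2.57-fold and 3.09-fold. The 3 mice of each group lay above all of group 12. Both calls were fragile. At 3 days the call ended when any 1 library but the second of 3OFF was left out (adjusted p-values from 0.0615 to 0.082). At 7 days it ended without any 1 library of group 12 (adjusted p-values from 0.0738 to 0.076) or without the first 7OFF mouse, which also lowered the log2 fold change to 0.97 (adjusted p = 0.132). At 3 days the 95% interval of Pcx, from 0.12 to 0.9, excluded 0 without a call (0.51 ± 0.18 SE, adjusted p = 0.0654). Those of the other genes not called at 3 days included 0. For the other 8 genes at 7 days the 95% intervals of the difference from group 12 included 0. They ran from -0.27 to 0.51 for Pcx, -0.03 to 0.58 for Hgd and -0.81 to 0.32 for Fbp1, and were wider for the rest, up to -0.95 to 1.54 for Pck1.

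Between successive groups few of the 9 genes were called. From 2 to 3 days Fbp1 was called higher (log2 fold change 1.07 ± 0.27 SE, adjusted p = 0.032), 1 of 9 against 6.79% of all genes (2.84% higher, 3.95% lower). That call ended without replicate 2 of 2OFF (0.82, adjusted p = 0.157), or replicate 2 (1.08, adjusted p = 0.0843) or replicate 3 of 3OFF (0.79, adjusted p = 0.149). Pck1 differed more, by 1.81 ± 0.6 SE, but with a wider spread (adjusted p = 0.0781). From 3 to 7 days edgeR called none of the 9 (8.06% of all genes, 3.02% higher and 5.04% lower). At an unadjusted p under 0.05 there were 2 of the 9 (Pcx at -0.39 and Hal at 0.82) and 24.5% of all genes. DESeq2 called none of the 9 and 2214 genes in all.

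Across the 18 libraries most of the 9 genes moved together, as a description over libraries that share group and depth. Pck1 and Tat had a Pearson r of 0.94 and Hpd and Hgd 0.91, and all pairs among Pck1, Fbp1, Tat, Hpd, Hgd, Hal and Sds lay between 0.69 and 0.94. Tdo2 had an r of 0.39 to 0.62 with these 7, and Pcx -0.36 to 0.07. Among all tested genes Tat was the gene most like Pck1 (r = 0.939). The genes most like the others included Fah, a later step of tyrosine breakdown, for Hpd (0.976), Agxt, which transaminates alanine and glyoxylate, for Hal (0.952), and Slc37a4 for Pcx. Those most like Fbp1 were Cd1d2 (0.979), Ctsh (0.977) and F13b (0.973), and those most like Hgd included Ndrg2 (0.969) and Ghr, the growth hormone receptor (0.958). Tdo2 was most like Cyp2d12 (0.929), and Sds, apart from the 2 genes that share its exons, most like Asl of the urea cycle (0.926).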

How the data were processed

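RNA of 18 mouse livers was sequenced as poly-A single reads of 50 nt. Per the submitters' processing notes, the authors trimmed reads with Trim Galore and aligned them with TopHat2 to mm10, with versions not given in the sources used here. Per the file headers, the authors made the deposited read counts per gene by running featureCounts 1.5.0-p1 over the exons in Ensembl 82 (GRCm38). Strand was ignored, at least 10 bases had to overlap, and each read was counted for every gene it overlapped. The values are raw counts.

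From these, symbols were matched for 34599 of 34937 gene IDs. Counts were fitted with edgeR 4.0.16 in R 4.3.3: filterByExpr at a minimum count of 10 left 17789 genes, and 1 quasi-likelihood fit with TMM scaling held all 18 libraries (12 residual degrees of freedom, biological coefficient of variation 0.202). Each of 11 comparisons was a two-sided F test with Benjamini-Hochberg adjustment at 0.05. The replicates are separate mice, per the series' design text. SE values were derived from the F statistic. The 9 genes, the pathway and marker lists and the motifs were chosen with earlier results of these data known. The 9 genes and their neighbouring steps were named, except for some genes of the lists that are not reported here; of other lists, up to 4 genes in each direction with the smallest p in 12ON vs 12 and in 7OFF vs 12ON, and for each of the 9 genes the 3 most correlated genes over the 18 libraries could be named.

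On data simulated for 12ON vs 12 with 17108 genes, the fit recovered 34% of 50 genes given a 1.5-fold change, 70% at 2-fold, 98% at 4-fold and 100% at 8-fold, and made 10 false calls. The simulation changed 200 genes, in random directions, while 46.6% of all genes were called in the real comparison. Its false calls therefore do not measure error from the choice of scaling in these data. Alternatives tried were different scalings (RLE, library totals), no filter, a test against 1.5-fold, a replicate block, terms for Xist and for the mitochondrial share, fits of 2 groups alone, DESeq2 1.42.0, and leaving out each library in turn.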

Additional observations from a re-analysis of the deposited data

How the results depend on the processing

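Of 3345 recomputed fold changes of the enzyme, neighbouring and listed genes, 2969 kept their direction and side of the threshold, 309 lost a call, 46 gained one and 21 changed sign. For the 9 genes, counts of calls moved as follows. In 12ON vs 12 (7 called) they were 4 with the mitochondrial term and 5 to 7 with 1 library left out. In 1OFF vs 12ON (0) they were 1 with the 2 groups alone and 1 with DESeq2. In 2OFF vs 12ON (0) leaving out 1 library gave 0 to 5. In 3OFF vs 12ON and 7OFF vs 12ON (8 each) the test against 1.5-fold gave 4 and 5, and leaving out 1 library 6 to 8 in both. By totals alone 6 were higher in 3OFF vs 12ON, and in 7OFF vs 12ON 7 were higher and 1 lower. In 1OFF vs 12 (5), totals alone gave 3, the 1.5-fold test 0, the Xist term 3, the mitochondrial term 1, and leaving out 1 library 1 to 5. In 2OFF vs 12 (5), totals gave 3, the 1.5-fold test 1, the mitochondrial term 1, the 2 groups alone 1, and leaving out 1 library 1 to 5. In 3OFF vs 12 (1), totals gave 2, the 1.5-fold test 0, the mitochondrial term 0, DESeq2 2, and leaving out 1 library 0 to 1. In 7OFF vs 12 (1), the 1.5-fold test, the mitochondrial term and the 2 groups alone gave 0, and leaving out 1 library 0 to 1. In 3OFF vs 2OFF (1), totals gave 2, the 1.5-fold test 0, the 2 groups alone 0, DESeq2 4 (of 2236 genes in all), and leaving out 1 library 0 to 3. In 7OFF vs 3OFF (0) leaving out 1 library gave 0 to 1.

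Sign changes were all in fold changes that had not been called. With totals alone they were 0.07 for Ftcd in 12ON vs 12, -0.09 for Pcx and -0.08 for Kmo in 3OFF vs 12ON, and 0.01 for Sds in 1OFF vs 12. With 1 library left out, values ran from -0.9 to 0.09 for Sds in 2OFF vs 12. In 3OFF vs 12 they ran from -0.45 to 0.06 for Fbp1, -0.12 to 0.18 for Tat, -0.04 to 0.26 for Hpd and -0.04 to 0.19 for Hgd. In 7OFF vs 12 they ran from -0.11 to 0.27 for Pcx and -0.27 to 0.67 for Pck1, and in 3OFF vs 2OFF from -0.16 to 0.03 for Pcx. In 7OFF vs 3OFF they ran from -0.74 to 0.19 for Pck1, -0.31 to 0.2 for Fbp1, -0.03 to 0.45 for Tat, -0.02 to 0.35 for Hpd and -0.39 to 0.61 for Tdo2. The cause of these changes was not tested.

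Replicate numbers did not pair the mice: deviations of same-numbered mice correlated between -0.216 and 0.262. A replicate block left 7, 0, 0, 8 and 8 calls in the main comparisons and gave 5 in 3OFF vs 2OFF. Over all genes, 8298 calls in 12ON vs 12 became 2892 against 1.5-fold and 4117 with the mitochondrial term, 5754 in 3OFF vs 12ON became 966 against 1.5-fold and 3708 without the second 12ON library, and 7833 in 7OFF vs 12ON became 2362. The 1 call in 1OFF vs 12ON became 189 with the 2 groups alone and 514 with DESeq2, and the 0 calls in 2OFF vs 12ON became 439 with the block, 138 with totals alone and 919 with DESeq2. Depth does not limit the 9 genes, while 3 mice per group limit the precision of all results.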

Other observations

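Genes known to follow feeding, fasting and the day cycle were read in the same livers, since the hour and feeding state at sampling are not given. In 12ON vs 12, 22.6% of all tested genes were lower and 24% higher, and in 7OFF vs 12ON 22.7% and 21.4%. Of 12 genes known to be high after feeding, 3 were lower and 1 higher in 12ON than in group 12, a count of lower genes near that share. Among the lower, Srebf1, a regulator of lipid synthesis, fell by 0.94, Mlxipl, a glucose-responsive factor, by 0.62 and Pklr, the liver pyruvate kinase, by 0.61 on the log2 scale. The Pklr call ended without replicate 1 or 3 of group 12 or replicate 2 of 12ON (adjusted p-values of 0.109, 0.0795 and 0.159). Of 12 genes known to be high in fasting, 1 was higher and 1 lower: Ppargc1a (1.3 ± 0.24 SE) and Fgf21, a fasting hormone (-0.89 ± 0.35 SE, adjusted p = 0.0488, a call that ended without any 1 library but the first of group 12). Fitted on the 2 groups alone, 3 of the 12 were higher and 3 lower. With scaling by totals alone, 2 of the feeding list and 3 of the fasting list were higher and none was lower. At 7 days 5 of the 12 genes known to be high after feeding were higher than in 12ON and none was lower, among them Mlxipl (1.46 ± 0.15 SE), Srebf1 (1.36 ± 0.19 SE), Scd1, a fatty acid desaturase (2.2 ± 0.52 SE), and Me1, malic enzyme (1.38 ± 0.36 SE), whose call ended without the first 7OFF library (0.73, adjusted p = 0.0587). Of the fasting list 2 were higher and 1 lower at 7 days. The part of feeding state in the levels of the enzyme genes was not tested.

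For the next 2 lists too, the shares of all tested genes were 24% higher and 22.6% lower in 12ON vs 12. In 7OFF vs 12ON they were 21.4% higher and 22.7% lower. Of 10 glucocorticoid targets, 1 was higher in 12ON, Zbtb16, a transcription factor (6.03 to 25.7 CPM, log2 fold change 2.12 ± 0.44 SE, adjusted p = 0.00094), and none was lower. Leaving out replicate 2 or 3 of group 12 or replicate 1 of 12ON added 1 lower gene. At 7 days 1 was higher than in 12ON and 3 were lower, and with 1 library left out 1 to 3 were called in all. Of the lower, Fkbp5 (-0.68 ± 0.26 SE, adjusted p = 0.0411) lost its call without any 1 of the 6 libraries (adjusted p-values from 0.0503 to 0.15), and Lcn2 (-1.93 ± 0.75 SE, adjusted p = 0.0487) without replicate 1 or 3 of 12ON or replicate 1 or 2 of 7OFF. Tsc22d3, which encodes the glucocorticoid-induced leucine zipper, was higher by 1.65 ± 0.5 SE (adjusted p = 0.0142), and lost its call without the second 12ON library (1.57, adjusted p = 0.0524) or the first 7OFF library (0.76, adjusted p = 0.17), the latter of which also held the highest Pck1, Tat and Tdo2 of its group. Of 15 clock genes 5 were lower and none higher in 12ON, 3 without its second library, among them Clock (-0.94 ± 0.13 SE), Nr1d1 (-1.43 ± 0.38 SE) and Npas2 (-3.2 ± 0.83 SE, 3.73 to 0.398 CPM), and 7 were higher in 7OFF than in 12ON. Whether these differences follow the hour of sampling or the groups cannot be told apart.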
